A study of Mus musculus with 2 samples.

Results

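Cluster 6 of a single-cell RNA-seq survey of mouse colon leukocytes was described as a small B cell population marked by Cd80, Basp1 and Fcrl5. Part of its cells had switched antibody heavy chains. Its members were the cells that carry cluster number 6 in the deposited metadata, 280 of 6886 cells. Of these, 166 of 3443 cells came from the 5XFAD library (4.82%) and 114 of 3443 from the wild-type (WT) library (3.31%).

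Both libraries were made from live leukocytes (CD45+) sorted from colon suspensions of female littermates aged 9 months, with 10x Chromium 3′ v3.1 chemistry. The 5XFAD library pooled 3 mice that carry human amyloid precursor protein and presenilin transgenes with familial Alzheimer disease mutations, which a Thy1 promoter drives mainly in neurons. The WT library pooled 3 littermates without the transgenes. The comparison asks how colon immune cells differ between these genotypes. With 1 pooled library per genotype the mice cannot be told apart, no test between genotypes was possible, and the 95% intervals given throughout cover counting error only.

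Class switching exchanges the constant region of the antibody heavy chain, so that a B cell that began with IgM and IgD makes IgG, IgA or IgE with the same antigen specificity. In the gut, switching to IgA is promoted by TGF-beta and takes place largely in Peyer's patches and other lymphoid follicles. Memory B cells of the mouse are commonly divided by surface CD80, CD73 (encoded by Nt5e) and PD-L2, and include cells that still carry IgM. B-1 cells are an innate-like lineage that makes natural IgM and contributes to intestinal IgA.

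Cluster 6 held 1031606 UMIs (unique molecules counted) in 5XFAD and 716875 in WT, and a median cell had 5972 UMIs from 1888 genes in 5XFAD, against 6042 UMIs from 1938 genes in WT. B cell clusters 0 to 5, with which it is compared, held 2364 and 2538 cells with medians of 5086 and 4784 UMIs. Cells with 2500 genes or more numbered 0 in 5XFAD and 6 in WT within cluster 6, and 0 and 106 in the whole libraries. The libraries shared 3 cell barcodes. Doublets were not called. A T cell receptor constant or Cd3 UMI was present in 6.63% of cluster 6 cells in 5XFAD and 8.77% in WT, against 6.18% and 6.90% in clusters 0 to 5.

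The label held for B lineage and for the 5 marker genes, and only in part for class switching. The 11 B cell identity genes summed to 5971 CPM (UMIs of a gene per 1000000 UMIs of the class) in cluster 6 of 5XFAD and 5776 CPM of WT, against 6493 and 6908 CPM in clusters 0 to 5. All 5 markers were higher than in clusters 0 to 5 in both libraries, which is a description only, since the clusters were built from expression. Of cells with a heavy chain call, 44.4% in 5XFAD and 51.0% in WT were switched, and nearly all the others were IgM. The group is therefore called cluster 6 below.

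Cd80, the costimulatory ligand that T cells read through CD28 and CTLA4, was high in cluster 6. It stood at 77.5 CPM in cluster 6 and 0.89 CPM in clusters 0 to 5 of the 5XFAD library, and at 65.6 and 0.24 CPM in the WT library. The log2 ratio of cluster 6 over clusters 0 to 5 was 6.45 (5.53 to 7.51) in 5XFAD and 8.11 (6.48 to 10.4) in WT. These ratios rest on 80 and 47 UMIs in cluster 6, and on 11 and 3 UMIs in the far larger clusters 0 to 5. No single cluster among 0 to 5 exceeded 1.44 CPM of Cd80 in 5XFAD or 0.62 CPM in WT, and cluster 7, the remaining B lineage cluster, had 1.38 and 3.01 CPM. Since the authors' clusters were built from the expression of these same cells, the contrasts with clusters 0 to 5 are descriptions and not tests.

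Basp1 encodes a membrane-associated protein best known from nerve growth cones. It was at 302 CPM in cluster 6 and 9.37 CPM in clusters 0 to 5 of 5XFAD, and at 258 and 7.81 CPM in WT (log2 ratios 5.01 and 5.05). Fcrl5, an Fc receptor-like protein found on mouse marginal zone and B-1 cells, was at 67.9 and 6.38 CPM in 5XFAD, and at 61.4 and 4.97 CPM in WT (3.41 and 3.63). The next highest B lineage cluster for Basp1 was cluster 7, at 33.2 CPM in 5XFAD, against 48.2 CPM in WT, well below cluster 6. Basp1 UMIs were spread over 58 and 36 cells of cluster 6, with at most 15 of 312 UMIs in 1 cell of 5XFAD and 28 of 185 in 1 cell of WT.

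Ighg2b, the constant region of IgG2b, was at 169 CPM in cluster 6 and 2.10 CPM in clusters 0 to 5 of 5XFAD, and at 177 and 3.00 CPM in WT. Igha, the constant region of IgA, was at 1698 and 27.1 CPM in 5XFAD, and at 2459 and 58.2 CPM in WT. The Igha ratios were 5.97 and 5.40 with all cells, and 3.14 and 3.01 without the 3 cells with over 10% immunoglobulin UMIs. The ratios of Ighg2b were 6.33 and 5.88 with those cells and 6.05 and 5.92 without them, and those of Cd80, Basp1 and Fcrl5 also stayed within their intervals. In the GENCODE vM21 annotation (GRCm38), Igha lies at chr12:113254830-113260236 and Ighg2b at chr12:113302965-113307933, both on the minus strand of the heavy chain locus.

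**Figure D1:**
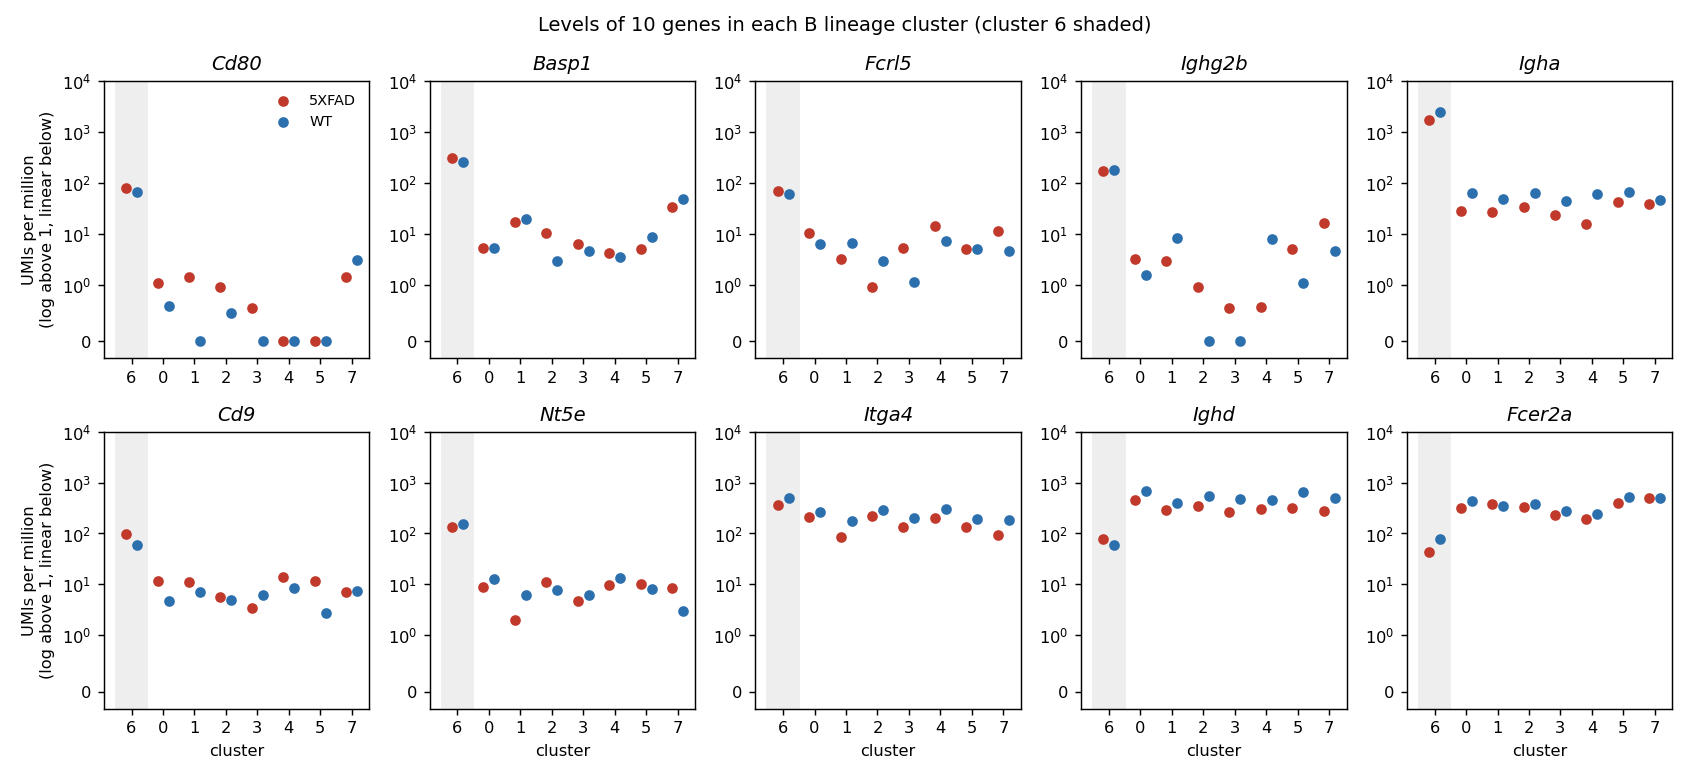
Summed CPM of 10 genes (vertical axis, logarithmic above 1 and linear below) in cluster 6, shaded, and in the other B lineage clusters, with 1 point per library (5XFAD red, WT blue). Cd80 lies at 77.5 and 65.6 CPM in cluster 6 and at no more than 3.01 CPM in any other cluster shown, while Ighd and Fcer2a are lowest in cluster 6.

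Free RNA in droplets gives UMIs to cells that do not express a gene, so shares of cells with a UMI were set beside those of T lineage cells after thinning each cell to 3000 UMIs. Cd80 was then seen in 17.7% of cluster 6 cells in 5XFAD and 14.9% in WT, against 0.826% and 1.02% of T lineage cells. Basp1 was seen in 32.3% and 23.7% of cluster 6 cells, against 3.51% and 4.08% of T lineage cells. Without thinning, the shares in cluster 6 were 30.7% and 28.9% for Cd80 and 34.9% and 31.6% for Basp1. Fcrl5 was seen in 14.02% and 15.8% of thinned cluster 6 cells and in no T lineage cell, where exact binomial upper limits are 0.759% and 0.937%.
For Igha the background was large. It was seen in 29.9% of thinned cluster 6 cells in 5XFAD and 46.5% in WT, and in 7.85% and 18.4% of T lineage cells, so a single Igha UMI does not mark an IgA cell. Thinning left out 2 and 0 cells of cluster 6 and 15 and 23 T lineage cells, whose median depths before thinning were 5571 and 5642 UMIs.

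The stretches of 250 bases upstream of the RefSeq starts of Cd80, Basp1 and Fcrl5 are shown because these genes set cluster 6 apart in both libraries. The sequences are from RefSeq (GRCm38.p6), written 5′ to 3′ on the gene's strand and ending just before the annotated start. Capitals mark matches on either strand to TGANTCA, the core recognised by AP-1 (Fos and Jun dimers), and to TGTGGT, the core recognised by Runx factors. The Cd80 stretch lies at chr16:38458683-38458932 (plus strand), that of Basp1 at chr15:25413765-25414014 (minus strand) and that of Fcrl5 at chr3:87435532-87435781 (plus strand). In GENCODE vM21 the Cd80 gene spans chr16:38455561-38496335, so its stretch lies inside the gene by that annotation. The Fcrl5 gene starts there at 87435773, just before its stretch ends.
Cd80: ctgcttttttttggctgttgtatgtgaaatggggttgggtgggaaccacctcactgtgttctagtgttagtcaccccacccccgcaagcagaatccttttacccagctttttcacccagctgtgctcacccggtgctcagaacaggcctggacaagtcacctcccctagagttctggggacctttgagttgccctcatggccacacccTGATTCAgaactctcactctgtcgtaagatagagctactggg
Basp1: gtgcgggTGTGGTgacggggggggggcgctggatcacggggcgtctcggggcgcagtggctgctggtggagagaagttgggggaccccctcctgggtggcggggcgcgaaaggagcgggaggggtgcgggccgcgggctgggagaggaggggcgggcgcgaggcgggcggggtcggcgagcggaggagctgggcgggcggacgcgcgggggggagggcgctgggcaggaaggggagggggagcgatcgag
Fcrl5: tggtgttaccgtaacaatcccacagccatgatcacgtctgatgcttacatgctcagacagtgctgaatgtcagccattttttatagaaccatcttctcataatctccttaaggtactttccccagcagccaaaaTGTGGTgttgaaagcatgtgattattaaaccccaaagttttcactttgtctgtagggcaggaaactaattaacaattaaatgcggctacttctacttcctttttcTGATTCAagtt
The Cd80 stretch held 1 AP-1 match, 42 bases before the start, and the Fcrl5 stretch held 1 AP-1 match at 11 and 1 Runx match at 116 bases before it. Basp1 had 1 Runx match, 243 bases before the start, in a stretch of 78.8% GC with 30 CG pairs, against 52.8% GC in Cd80, 39.6% in Fcrl5 and a median of 52.0% over all promoters. Of the 20 genes named below as highest in cluster 6, 15 had a promoter in the table. Runx matches were present in 5 of these 15 (33.3%: Basp1, Ccr1, Fcrl5, Gpr55 and Odc1), against 14.2% of 27025 promoters of the same length. AP-1 matches were present in 2 of 15, against 6.87% of all promoters. The E-box CAGGTG was present in 2 of 15 (Cd9 and Emb) against 17.1%, and the octamer ATGCAAAT, the core read by Oct factors, in 0 of 15 against 1.61%. A match is a string of letters and not a binding site, and no chance test was made.

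Across 9809 genes measured in B clusters 0 to 6, 302 (3.08%) had a log2 ratio of cluster 6 over clusters 0 to 5 above 1 in both libraries and 141 (1.44%) had a ratio below -1 in both. Within each library alone, 6.07% of genes in 5XFAD and 6.96% in WT were above 1, and 5.45% and 6.43% were below -1. A gene was measured if it had at least 50 UMIs over clusters 0 to 6 together. Genes rare in clusters 0 to 5, such as Cd80, met this only through cluster 6 and had to lie high there. Among genes with at least 50 CPM and UMIs in 10% of cluster 6 cells in each library, the 20 farthest above clusters 0 to 5, by the smaller of the ratios of both libraries, were Cd80, Ighg2b, AC168977.1, Igha, Basp1, Ccr1, Jchain, Camk2n1, Nt5e, Fcrl5, Cd9, Cd300lf, Rgs1, Mpeg1, Emb, Tent5c, Gpr55, Nfil3, Cd44 and Odc1. Ccr1, a receptor for inflammatory CC chemokines, was at 73.7 CPM in cluster 6 and 2.02 CPM in clusters 0 to 5 of 5XFAD, and at 50.2 and 1.58 CPM in WT. Nt5e, the CD73 enzyme that makes adenosine from AMP, was at 137 and 6.86 CPM in 5XFAD, and at 151 and 9.23 CPM in WT. Cd44, the hyaluronan receptor that is high on antigen-experienced lymphocytes, was at 201 and 34.8 CPM in 5XFAD, and at 229 and 35.7 CPM in WT. Cd300lf, an inhibitory receptor of the CD300 family, was at 109 and 11.5 CPM in 5XFAD, and at 121 and 8.13 CPM in WT.

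Camk2n1, an inhibitor of the kinase CaMKII, was at 96.0 and 3.55 CPM in cluster 6 and clusters 0 to 5 of 5XFAD, and at 72.5 and 3.24 CPM in WT. Rgs1, which shortens chemokine receptor signals, was at 186 and 16.6 CPM in 5XFAD, and at 363 and 39.1 CPM in WT. Odc1, the rate-limiting enzyme of polyamine synthesis, had the highest level among the non-immunoglobulin genes of the list. It was at 1607 and 245 CPM in 5XFAD and at 838 and 146 CPM in WT, and it was seen in 95.2% and 78.9% of cluster 6 cells. AC168977.1, a gene model with no role assigned here, was at 64.9 and 0.65 CPM in 5XFAD and at 64.2 and 1.18 CPM in WT.

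**Figure D2:**
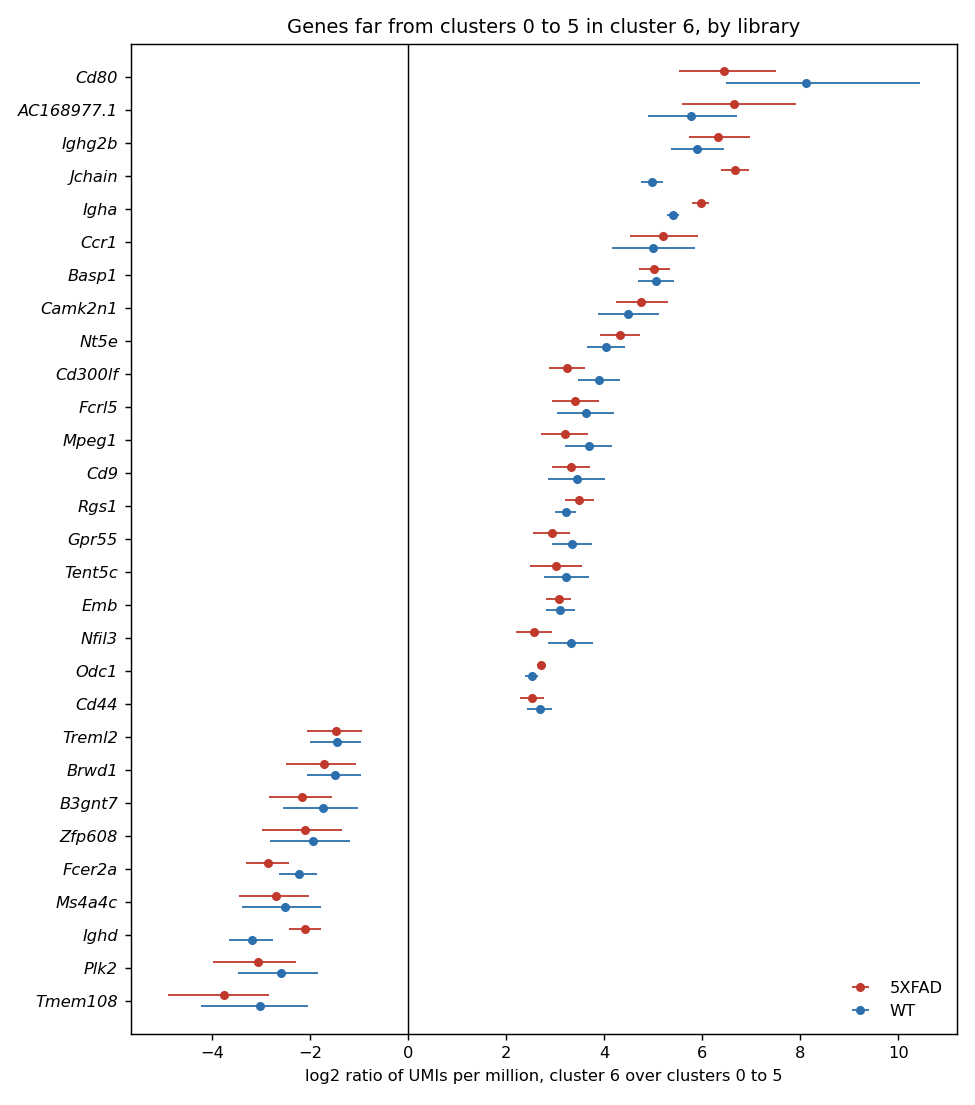
Log2 ratio of summed CPM in cluster 6 over clusters 0 to 5 (horizontal axis) for the 20 genes farthest above and 9 of the 10 farthest below of those at 50 CPM or more in the higher class, with 1 point per library (5XFAD red, WT blue) and exact 95% counting intervals. Both libraries place every gene shown on the same side of 0, from 8.11 for Cd80 in WT to -3.77 for Tmem108 in 5XFAD.

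Genes of follicular B cells were low. Of 11 follicular genes measured, 3 had ratios below -1 in both libraries (Fcer2a, Ighd and Cd55), 9 were below 0 in both, and the median ratio was -0.63 in 5XFAD and -0.82 in WT, against a background of 1.44% of genes below -1 in both. Fcer2a, the low-affinity IgE receptor CD23, was at 42.7 CPM in cluster 6 and 310 CPM in clusters 0 to 5 of 5XFAD, and at 79.5 and 376 CPM in WT. Ighd, the constant region of IgD, was at 77.5 and 334 CPM in 5XFAD, and at 60.0 and 549 CPM in WT. Cd55, a complement regulator, had ratios of -1.19 and -1.67. Cxcr5, the receptor that leads B cells into follicles, had ratios near 0 (0.21, -0.05 to 0.47, and -0.13, -0.44 to 0.15).

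Other genes far below clusters 0 to 5 were Tmem108, Plk2, Ms4a4c, Zfp608, B3gnt7, Brwd1 and Treml2. Tmem108 was at 8.72 CPM in cluster 6 and 119 CPM in clusters 0 to 5 of 5XFAD, and at 11.2 and 90.9 CPM in WT. Plk2, a polo-like kinase, was at 12.6 and 106 CPM in 5XFAD, and at 19.5 and 118 CPM in WT. Brwd1, a chromatin reader needed for B cell development, had smaller ratios of -1.73 and -1.49.

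Some memory B cell genes were high. Of 11 memory B genes measured, 4 had ratios above 1 in both libraries (Cd80, Nt5e, Cd44 and Ahr), against the background of 3.08%, with medians of 1.10 in 5XFAD and 0.64 in WT. Among these, Cd80 is a marker of the label, so its place in this count was known beforehand. Ahr, a receptor for dietary and microbial indoles, was at 160 and 36.7 CPM in cluster 6 and clusters 0 to 5 of 5XFAD, and at 248 and 62.1 CPM in WT. Pdcd1lg2, which encodes PD-L2, differed less (ratios 0.85 and 0.32), as did Hhex (0.06 and -0.73), a factor needed for memory B cells in mice.

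Of 9 B-1 and innate-like genes with enough UMIs, 7 had ratios above 1 in both libraries, against 3.08% of all genes. They were Cd9, Bhlhe41, Fcrl5, Plscr1, Ctla4, Itgb1 and Spn, and the list medians were 2.34 and 3.11. Fcrl5 is 1 of the 5 markers of the label, so its place in this count was known beforehand. Cd9, a tetraspanin of B-1 and marginal zone cells, was at 96.9 and 9.69 CPM in cluster 6 and clusters 0 to 5 of 5XFAD, and at 60.0 and 5.52 CPM in WT. Bhlhe41, a repressor needed for normal B-1a cells in mice, was at 39.7 and 3.96 CPM in 5XFAD, and at 89.3 and 7.42 CPM in WT. Ctla4 was at 10.7 and 2.10 CPM in 5XFAD, and at 54.4 and 1.97 CPM in WT, where 11 of 114 cells carried its 39 UMIs. Cd5, the classical marker of B-1a cells, had 1.94 CPM in cluster 6 of 5XFAD and 0 UMIs in that of WT. Spn, which encodes CD43, another B-1 marker, had 4.85 and 13.9 CPM.

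Among 20 B cell transcription factor genes, 5 had ratios above 1 in both libraries (Zbtb20, Tcf4, Id2, Bhlhe41 and Prdm1), against 3.08% of all genes. None had a ratio below -1, against 1.44% of all genes in both libraries. Zbtb20, a zinc finger repressor expressed in antigen-experienced B cells, was at 325 and 90.5 CPM in cluster 6 and clusters 0 to 5 of 5XFAD, and at 612 and 144 CPM in WT. Tcf4, the E protein E2-2, was at 586 and 190 CPM in 5XFAD, and at 583 and 237 CPM in WT. Id2, an inhibitor of E proteins, was higher as well, at 182 and 56.0 CPM in 5XFAD and at 170 and 26.4 CPM in WT. Prdm1, the plasma cell factor Blimp-1, stayed low, at 5.82 and 16.7 CPM in cluster 6.

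Of 14 class switch and TGF-beta pathway genes, 2 had ratios above 1 in both libraries, against 3.08% of all genes. Both are Runx factors that mouse B cells need for TGF-beta-driven IgA switching. Runx3 was at 153 and 38.0 CPM in cluster 6 and clusters 0 to 5 of 5XFAD, and at 208 and 55.9 CPM in WT. Runx2 was at 19.4 and 0.16 CPM in 5XFAD, and at 34.9 and 0.39 CPM in WT. Being this rare in clusters 0 to 5, Runx2 met the UMI minimum only through cluster 6 and had to lie high there. The place of Runx2 in this count was thus fixed by the UMI minimum, which leaves Runx3 as the gene free to lie on either side. The TGF-beta receptor genes were closer to clusters 0 to 5, with ratios of 0.46 and 0.82 for Tgfbr1 and -0.20 and -0.14 for Tgfbr2.

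Of 13 trafficking genes, Itga4 and Itgb1 had ratios above 1 in both libraries, against 3.08% of all genes. None had ratios below -1 in both, against 1.44% of all genes. Itga4 encodes the alpha4 integrin chain that, paired with Itgb7, brings lymphocytes into the gut wall. It was at 356 and 161 CPM in cluster 6 and clusters 0 to 5 of 5XFAD, and at 498 and 236 CPM in WT, while Itgb7 was at 44.6 and 47.4 CPM in 5XFAD and 44.6 and 63.4 CPM in WT. Ccr6, which draws B cells to the epithelium over lymphoid follicles, had ratios of 0.88 and 0.44. Ccr10, a homing receptor of IgA plasma cells, was at 0.97 and 1.39 CPM in cluster 6.

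Genes of antigen presentation and of B cell identity lay closer to clusters 0 to 5. Of 11 B cell identity genes and of 10 MHC class II genes, 0 had a ratio beyond 1 in either direction. Over all genes, 3.08% were above 1 and 1.44% below -1 in both libraries. In lists this short a count of 0 is near those shares. The list medians lay at -0.16 in both libraries for identity genes and at -0.13 in both for MHC class II. Of the 11 identity genes 8 were below 0 in both libraries, and of the 10 MHC class II genes 8 were. Of 9 costimulation genes, Cd80, a marker of the label, was above 1 in both libraries. Icosl, the ligand of ICOS, was below -1 in both, beside the same shares of all genes. Icosl was at 6.79 and 24.7 CPM in cluster 6 and clusters 0 to 5 of 5XFAD, and at 13.9 and 53.7 CPM in WT. Cd86, the other ligand of CD28, was at 566 and 355 CPM in 5XFAD and at 395 and 277 CPM in WT, and Cd86 was seen in 90.4% and 81.6% of cluster 6 cells. Of 13 plasma cell and secretion genes, 3 were above 1 in both libraries (Jchain, Mzb1 and Prdm1), against 3.08% of all genes. Tnfrsf17, the plasma cell receptor BCMA, had 0 UMIs in 5XFAD and 1.39 CPM in WT.

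Of 8 age-associated B cell genes measured, Fcrl5, a marker of the label, and Fas were above 1 in both libraries, against 3.08% of all genes. Tbx21 and Itgax, which define those cells in mice, were at 1.94 CPM each in cluster 6 of 5XFAD, and at 0 and 6.97 CPM in that of WT. Marginal zone genes gave 2 of 7 above 1 in both (Cd9 and Mzb1), against the same 3.08%. Cr2, the complement receptor high on marginal zone cells, had ratios of -0.87 and -0.89.

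Markers of other cell types were low in cluster 6, and their part in the results was not tested. The 10 T cell marker genes summed to 14.5 CPM in 5XFAD and 34.9 CPM in WT, against 18.2 and 19.5 CPM in clusters 0 to 5 and 4635 and 4495 CPM in T lineage clusters, with Cd8a at 0 in both libraries, Cd3e and Lat at 0 in 5XFAD and Cd4 at 0 in WT. The 10 innate lymphoid and NK genes summed to 16.5 and 37.7 CPM (10.9 and 13.02 CPM in clusters 0 to 5), with Klrb1c, Ncr1, Gata3 and Eomes at 0 in both. The 12 myeloid genes summed to 60.1 and 83.7 CPM (63.1 and 65.1 CPM in clusters 0 to 5), with Csf1r, C1qb, S100a8 and S100a9 at 0 in both. The 10 epithelial and stromal genes summed to 79.5 and 72.5 CPM (61.3 and 94.3 CPM in clusters 0 to 5), most of it Pecam1 at 46.5 and 57.2 CPM.

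A cell was given a heavy chain isotype if it held 3 or more heavy chain constant UMIs and 1 isotype had over 50% of them, which was so for 126 cluster 6 cells of 5XFAD and 98 of WT. Switched calls numbered 44.4% (35.6 to 53.6) in 5XFAD and 51.0% (40.7 to 61.3) in WT, against 0.214% and 0.360% of called cells in clusters 0 to 5. The IgG calls together made up 21.4% in 5XFAD and 20.4% in WT. IgG1 contributed 3.97% and 5.10%, IgG3 1.59% and 1.02%, and IgG2c 0% and 2.04%. IgD calls made up 2.38% in 5XFAD and 0% in WT, against 11.7% and 9.41% in clusters 0 to 5. Of the IgA or IgG cells found anywhere in B lineage clusters 0 to 7, cluster 6 held 56 of 65 (86.2%, 75.3 to 93.5) in 5XFAD and 50 of 58 (86.2%, 74.6 to 93.9) in WT.

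The IgM cells of cluster 6 held more Ighm than T lineage cells that met the same call. Their median was 8 Ighm UMIs in 5XFAD and 13.5 in WT, against 6 and 8 in IgM cells of clusters 0 to 5 and 3.5 and 3 in the T lineage cells that met the call. Their Cd80 level differed from that of IgM cells of clusters 0 to 5, which is a description only, since the clusters were built from expression. Cd80 was at 51.0 CPM (31.9 to 77.2) in 67 IgM cells of cluster 6 in 5XFAD and 56.0 CPM (32.6 to 89.7) in 48 of WT, while 1644 and 2004 IgM cells of clusters 0 to 5 held 10 and 2 Cd80 UMIs in all. The call itself has a background: 24 T lineage cells of 5XFAD and 69 of WT were called IgM, 4 and 10 IgA, and 0 and 0 IgG. IgA made up 23.0% and 30.6% of called cells in cluster 6, and among called T lineage cells the IgA share was 14.3% (4.03 to 32.7) and 12.5% (6.16 to 21.8). The bases of these shares are unlike. A call was made for 126 of 166 and 98 of 114 cluster 6 cells, but for 28 of 499 and 80 of 415 T lineage cells. The IgA cells held a median of 6 and 8 Igha UMIs in cluster 6, against 2.5 and 3 in T lineage clusters. The part of free RNA in the IgA calls of cluster 6 was not tested.

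**Figure D3:**
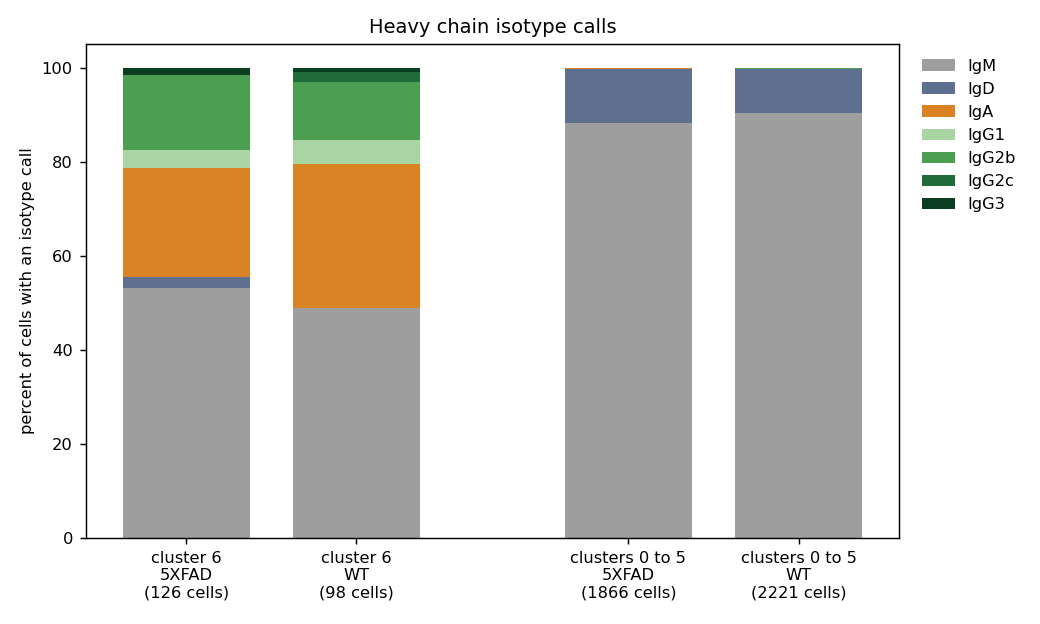
Percent of cells with an isotype call (vertical axis) that were IgM, IgD, IgA or an IgG subclass, as stacked bars for cluster 6 and for clusters 0 to 5 in each library, with the number of called cells below. Switched isotypes fill 44.4% and 51.0% of the cluster 6 bars and less than 1% of the bars of clusters 0 to 5.

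Within cluster 6, switched and IgM cells differed in a small set of genes. With cells over 10% immunoglobulin left out, 55 switched cells of 5XFAD were set against 67 IgM cells, and 48 against 48 of WT. Of 3415 genes, 25 (0.732%) had a log2 ratio of switched over IgM cells above 1 in both libraries and 20 (0.586%) had a ratio below -1 in both. Beyond the constant region genes, 16 were higher and 15 lower with counting intervals away from 0 in both libraries, and those named next were chosen from these after their values were seen. Basp1 was at 463 CPM in switched cells and 23.2 CPM in IgM cells of 5XFAD, and at 348 and 42.8 CPM in WT (log2 ratios 4.32, 3.40 to 5.41, and 3.02, 2.19 to 3.98). Rgs1 was at 378 and 55.6 CPM in 5XFAD, and at 504 and 155 CPM in WT. Vpreb3, a surrogate light chain family member also found in germinal centre B cells, was at 167 and 53.3 CPM in 5XFAD, and at 156 and 75.8 CPM in WT, although cluster 6 as a whole was lower than clusters 0 to 5 (ratios -0.63 and -0.76). Others higher in switched cells were Jchain, Senp7, Slc15a3, Cbl, Mbd2, Epb41, Tes, Skap2, Cybc1, Baz2a, Zfp800, Fbxw7 and Pakap.1.

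Cd9 ran the other way, at 23.4 CPM in switched cells and 183 CPM in IgM cells of 5XFAD, and at 9.76 and 109 CPM in WT (-2.96 and -3.48). Il5ra, the interleukin 5 receptor chain that mouse B-1 cells carry, was at 23.4 and 99.6 CPM in 5XFAD, and at 9.76 and 42.8 CPM in WT, on 3 and 13 UMIs. S1pr1, the receptor by which lymphocytes leave tissues, was at 114 and 292 CPM in 5XFAD, and at 52.1 and 221 CPM in WT. Foxp1, a factor of resting mature B cells, was at 237 and 741 CPM in 5XFAD, and at 312 and 801 CPM in WT. Smc6, a subunit of a DNA repair complex, was at 284 and 744 CPM in 5XFAD, and at 279.9 and 886 CPM in WT. Others lower in switched cells were Rasgef1b, Il6st, Fam43a, Sh2d2a, Ptpn22, Rsu1, Rdx, Snapc5, Nhp2 and Crbn.

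IgA and IgG cells also differed from each other. Runx3 was at 312 CPM (236 to 406) in IgA cells, 111 CPM (65.8 to 176) in IgG cells and 81.1 CPM (56.5 to 113) in IgM cells of 5XFAD, and at 304 (229 to 396), 111 (60.5 to 186) and 119 CPM (83.1 to 164) in WT. Runx3 was thus highest in IgA cells of both libraries, and the intervals of IgG and IgM cells overlapped. Itga4 was at 569, 370.2 and 227 CPM in IgA, IgG and IgM cells of 5XFAD, and at 659, 506 and 366 CPM in WT, the same order in both. Plac8, a small cysteine-rich protein of myeloid and innate-like lymphoid cells, was at 1378, 685 and 1779 CPM in IgA, IgG and IgM cells of 5XFAD, and at 1151, 577 and 1621 CPM in WT, lowest in IgG cells of both. Nt5e was at 173, 210 and 64.9 CPM in IgA, IgG and IgM cells of 5XFAD, and at 138, 245 and 105.4 CPM in WT.

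Cd80 was present in all 3 classes, at 78.1, 74.0 and 51.0 CPM in IgA, IgG and IgM cells of 5XFAD and at 44.3, 63.2 and 56.0 CPM in WT, and the intervals of the classes overlapped. Fcrl5 was at 89.3, 30.9 and 99.6 CPM in 5XFAD and at 88.6, 31.6 and 69.2 CPM in WT. At least 1 UMI of Basp1, Cd80 or Fcrl5 was carried by 75.9% of IgA, 77.8% of IgG and 49.3% of IgM cells in 5XFAD, and by 83.3%, 90.0% and 54.2% in WT. Over the whole cluster 64.5% of cells in 5XFAD and 71.9% in WT carried one, against 5.80% and 4.69% in clusters 0 to 5. Cells without a call had Basp1 at 602 CPM in 5XFAD, against 523 CPM in WT, and Ighd in 5.00% and 12.5% of cells.

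**Figure D4:**
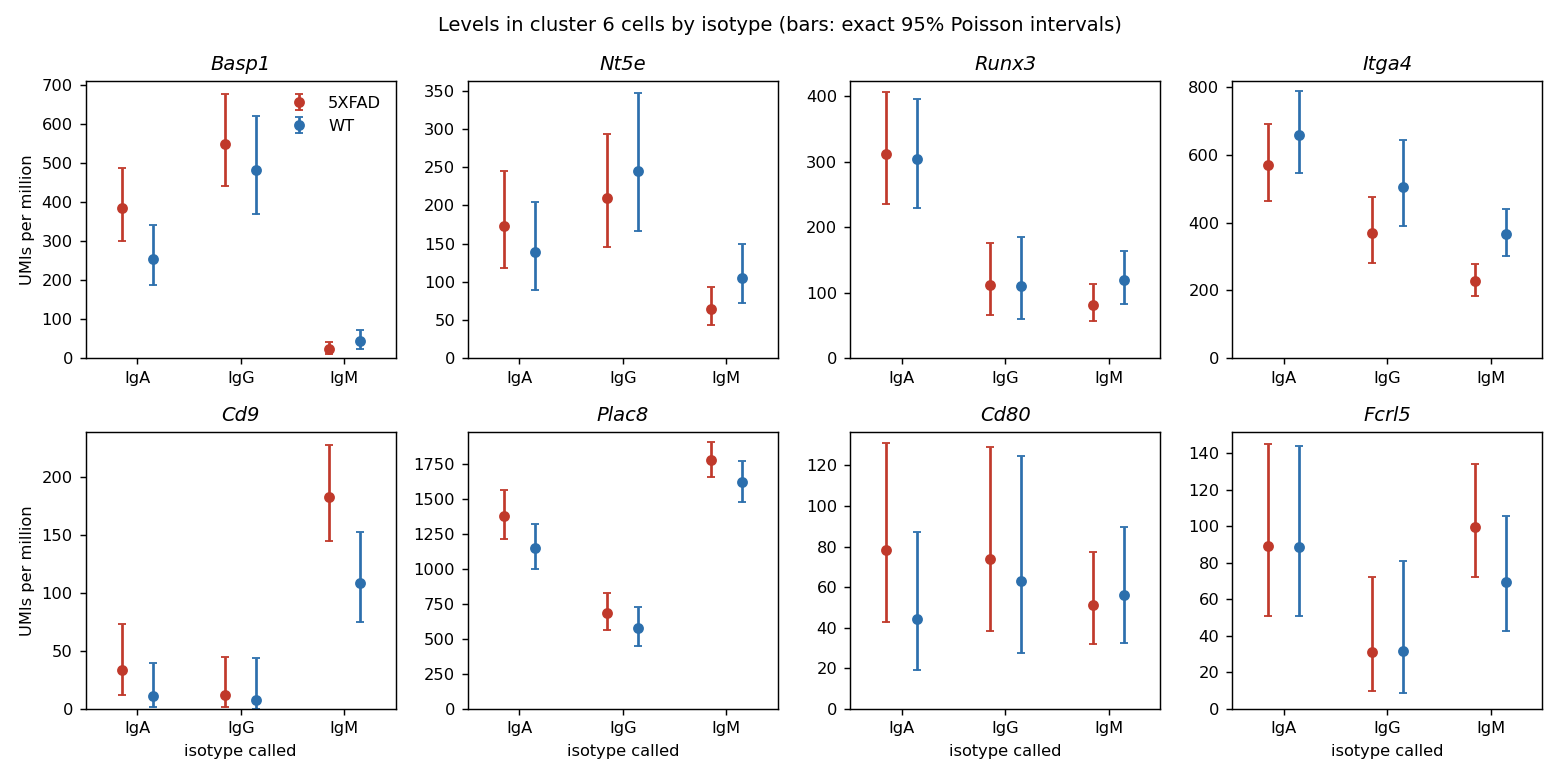
Summed CPM (vertical axis, linear from 0) of 8 genes in IgA, IgG and IgM cells of cluster 6, without cells over 10% immunoglobulin, with exact 95% Poisson intervals (5XFAD red, WT blue). Basp1 and Nt5e are low in IgM cells, Cd9 and Plac8 are high there, Runx3 is highest in IgA cells, and Cd80 lies between 44.3 and 78.1 CPM in all classes.

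By immunoglobulin content 3 cells of cluster 6 stood apart, 1 in 5XFAD and 2 in WT, while no other member exceeded 1.60% and 1.78% immunoglobulin UMIs. The 5XFAD cell held 13920 UMIs, 48.6% of them immunoglobulin, with 1508 of Igha, 5059 of Igkc (the kappa light chain constant) and 877 of Jchain (the chain that joins polymeric IgA). One WT cell held 56.2% immunoglobulin with 1258 Igha, 2666 Igkc and 304 Jchain UMIs, and the other held 18.7% with 177 Igha and 1316 Iglc1 UMIs (a lambda light chain constant). All 3 were called IgA and had 0 UMIs of Ms4a1 and Pax5, which mature plasma cells switch off. Plasma cell genes were uneven among them. The cell with 18.7% immunoglobulin had 0 UMIs of Sdc1, Irf4 and Derl3 and 29 of the MHC class II gene H2-Aa, while both others had 3 Sdc1 UMIs, and Prdm1 was at 0 in 2 of the 3 cells. Jchain in cluster 6 over clusters 0 to 5 had ratios of 6.66 in 5XFAD and 4.98 in WT with these cells and 2.5 and 2.41 without them.

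A set of WT cells carried germinal centre genes. UMIs of at least 2 of S1pr2, Rgs13, Gcsam, Mef2b and Nuggc were found in 0 of 166 cells of 5XFAD (upper limit 2.20%) and in 6 of 114 cells of WT (5.26%, 1.96 to 11.1). In clusters 0 to 5 they were found in 0 of 2364 and 1 of 2538 cells. Each of the 6 WT cells carried at least 3 of the 5 genes, and 5 of them carried S1pr2, a receptor that holds B cells in the germinal centre. They were called IgA (2), IgG1 (1) and IgG2b (3), and all had Basp1 UMIs (3 to 11) and 0 Cd80 and 0 Ighd UMIs. Of the 6 cells, 3 had 2500 genes or more, a range in which the 5XFAD library had no cell, and the part of that limit in the difference was not tested. Without these 6 cells Basp1 in WT IgG cells was 335 CPM in place of 482 CPM.

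Between genotypes, the share of cells in cluster 6 depends on what it is counted against. It was 6.25% in 5XFAD and 4.10% in WT of the cells of B lineage clusters 0 to 7, a log2 ratio of 0.61 (0.25 to 0.96), and 15.4% and 12.6% of all cells outside clusters 0 to 5, a ratio of 0.29 (-0.06 to 0.65). Without the 3 cells rich in immunoglobulin the shares of all cells were 4.79% and 3.26%.

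Of the 5 marker genes, 4 differed between genotypes by no more than counting error. The log2 ratios of 5XFAD over WT were 0.24 (-0.30 to 0.79) for Cd80, 0.23 (-0.04 to 0.50) for Basp1, 0.14 (-0.42 to 0.72) for Fcrl5 and -0.07 (-0.41 to 0.27) for Ighg2b. All 4 intervals include 0, and those of Cd80 and Fcrl5 also include changes of more than 0.5. Igha had a ratio of -0.53 with all cells and -0.97 without the 3 cells rich in immunoglobulin. Ighg2b reached a ratio of 0.54 without the 6 WT cells with germinal centre genes. Ighm was at 637 CPM in 5XFAD, against 1021 CPM in WT (-0.68, -0.84 to -0.53), Ighg1 at 34.9 and 67.0 CPM (-0.94, -1.61 to -0.29), and Igkc at 8066 and 6743 CPM (0.26, 0.21 to 0.31). T lineage cells thinned to 3000 UMIs also differed between libraries. Igha was seen in 7.85% of them in 5XFAD and 18.4% in WT, and Ighm in 18.4% and 34.2%. The part of free RNA in the Igha and Ighm ratios was not tested. Most heavy chain constants were lower in clusters 0 to 5 of 5XFAD as well. Of the 5 compared, 4 were lower in cluster 6 and 4 in clusters 0 to 5, with medians of -0.53 and -0.65. Over all genes, 51.1% were below 0 in cluster 6. The highest ratio among the 5 was 0.37 in cluster 6 and 1.03 in clusters 0 to 5. The Igkc ratio turned to -0.23 as a mean of per-cell CPM and -0.19 with SCT values (another table of the authors), and was 0.05 without the 3 cells rich in immunoglobulin, 1 of which held 5059 of the 8321 Igkc UMIs of 5XFAD.

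Among 4049 genes with at least 50 UMIs in cluster 6, 64 (1.58%) had a log2 ratio of 5XFAD over WT above 1 and 99 (2.45%) had a ratio below -1, with a median of -0.01. In clusters 0 to 5 the same genes gave 0.445% and 1.56%, with a median of -0.07. Cluster 6 holds far fewer UMIs than clusters 0 to 5, and its intervals are wider. Of 23 genes shown in the plot of genotype ratios, 11 higher and 12 lower in 5XFAD, Lck was the one whose ratio had the opposite sign in clusters 0 to 5. Ost4, a subunit of the complex that adds N-linked sugars, was at 199.7 and 87.9 CPM (1.18, and 1.35 in clusters 0 to 5). Hopx, an atypical homeodomain protein, was at 162 and 58.6 CPM (1.47, and 0.80). Odc1 had a ratio of 0.94 (and 0.75), and the spliceosome gene Snrpf and the translocon gene Sec61g had 0.96 and 0.91 (and 0.95 and 0.79).

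Among genes lower in 5XFAD, Jun was at 90.2 CPM in 5XFAD, against 279 CPM in WT (-1.63, -2.0 to -1.27), with -2.54 in clusters 0 to 5. Ciita, the transactivator of the MHC class II promoters, was at 44.6 and 116 CPM (-1.38, and -1.78). The median of the 10 MHC class II list genes was 0.15, with 7 of 10 above 0, against 48.9% of all genes. Pbxip1 was at 51.4 and 152 CPM (-1.57, and -0.88), and Lars2, the mitochondrial leucyl-tRNA synthetase, at 855 and 1756 CPM (-1.04, and -1.16). Cpsf6, a factor of mRNA 3′ end formation, had -1.34 (and -0.65), Cdk12, a kinase of RNA polymerase elongation, -1.23 (and -0.58), Tm6sf1 -1.51 (and -0.77) and the semaphorin receptor Plxnc1 -1.63 (and -0.59).

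Lck, Nufip1 and Glrx2 had ratios between -0.22 and 0.19 in clusters 0 to 5. Lck, a Src family kinase best known from T cells, was at 68.8 CPM in 5XFAD, against 25.1 CPM in WT (1.45, 0.69 to 2.29), with -0.22 in clusters 0 to 5. Its UMIs were in 24.1% and 14.04% of cells. The T cell marker sums were 14.5 and 34.9 CPM, on 15 and 25 UMIs, and the part of T cell RNA in the Lck ratio was not tested. Nufip1, a snoRNP assembly factor, was at 49.4 and 12.6 CPM (1.98, 0.94 to 3.19), with 0.19 in clusters 0 to 5. Glrx2, a mitochondrial glutaredoxin, was at 16.5 and 53.0 CPM (-1.69, -2.60 to -0.83), with -0.03 in clusters 0 to 5. These rest on 71 and 18, 51 and 9, and 17 and 38 UMIs in 5XFAD and WT, and the difference between clusters was not tested. The other named genes were Snhg6, Stat4, Atp5md, Cdk2ap1, Cbfa2t3, AU020206 and Bcl11a.

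**Figure D5:**
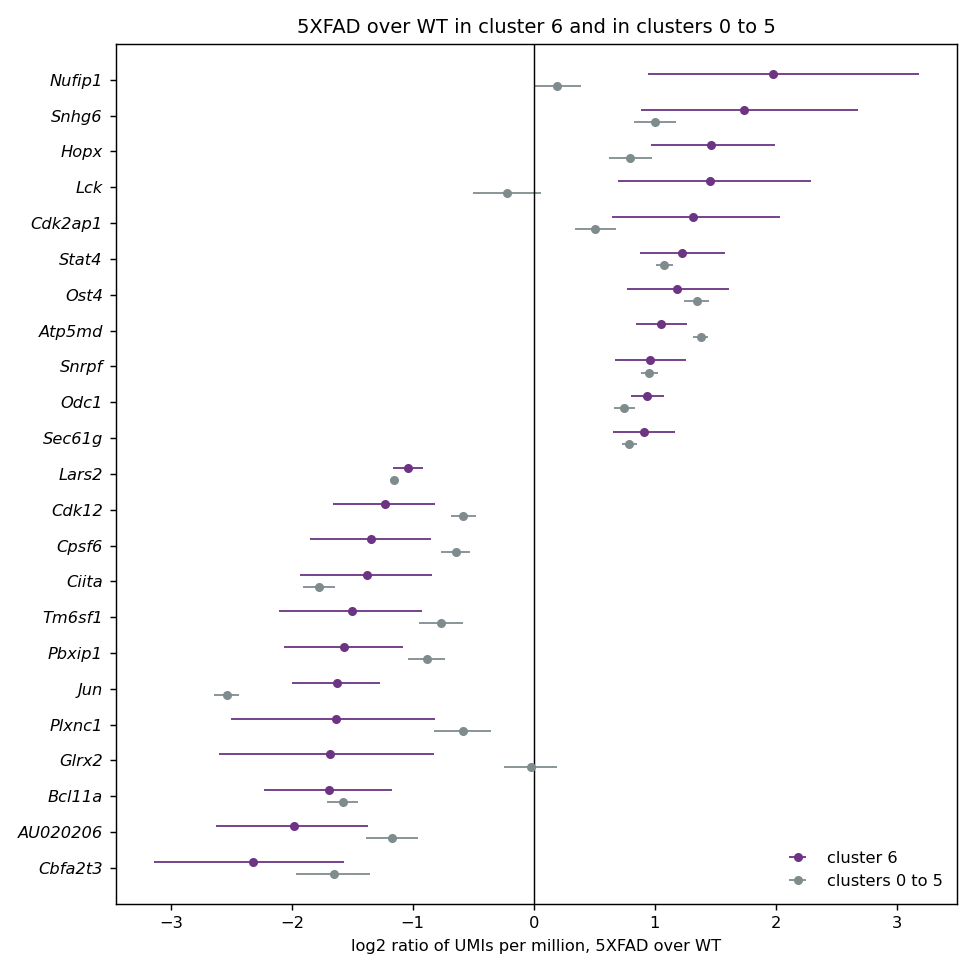
Log2 ratio of summed CPM, 5XFAD over WT (horizontal axis), in cluster 6 (purple) and in clusters 0 to 5 (grey) for 11 of the 12 genes above and the 12 below 0 in cluster 6 whose interval bound nearest 0 lay farthest from it, among genes with UMIs in at least 10% of cells of the higher library, with exact 95% counting intervals. Most pairs lie on the same side of 0, and Nufip1 (1.98 and 0.19), Lck (1.45 and -0.22) and Glrx2 (-1.69 and -0.03) lie apart.

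Lists of metabolic and signalling genes differed between genotypes in the same direction as in clusters 0 to 5. Of 26 nuclear genes of oxidative phosphorylation, 23 were higher in 5XFAD, against 48.9% of all genes, with a median of 0.36 in cluster 6 and 0.52 in clusters 0 to 5. Cox7c was at 607 CPM in 5XFAD, against 371 CPM in WT (0.71), Atp5e at 643 and 419.9 CPM (0.61) and Ndufa1 at 139.6 and 67.0 CPM (1.06). Of 13 B cell receptor signalling genes, 10 were lower in 5XFAD, against 51.1% of all genes, with medians of -0.51 in cluster 6 (-0.24 over genes with at least 100 UMIs) and -0.58 in clusters 0 to 5. Vav1 (-1.19) and the adaptor Blnk (-1.04) were lowest, and Lyn, the Src kinase that starts the signal, ran the other way at 495 and 328 CPM (0.60, 0.37 to 0.82). Of 10 inhibitory receptor genes 8 were lower, against 51.1% of all genes, among them Btla (-1.39) and Ptpn6 (-1.10). Their list median was -0.45, and -0.37 in clusters 0 to 5.

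Trafficking genes had a median of 0.01 in cluster 6 and -0.36 in clusters 0 to 5, and immediate early and stress genes -0.03 and -0.44. In cluster 6 S1pr1 was at 183 CPM in 5XFAD, against 117 CPM in WT (0.64, 0.27 to 1.03), Ccr7 at 743 and 552 CPM (0.43, 0.25 to 0.61) and Ccr6 at 321 and 215 CPM (0.58, 0.30 to 0.86). Itga4 was lower in 5XFAD, at 356 and 498 CPM (-0.49, -0.70 to -0.27), and Ahr was too, at 160 and 248 CPM (-0.63, -0.95 to -0.32). Both genes were also lower in 5XFAD in each of clusters 0 to 5. Bhlhe41 was at 39.7 and 89.3 CPM (-1.17, -1.77 to -0.58) and Zbtb20 at 325 and 612 CPM (-0.92, -1.12 to -0.71), with -0.91 and -0.67 in clusters 0 to 5.

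Transcript length moved with the genotype ratio. Over 4029 genes of cluster 6 with an annotated length, Spearman's rho between the longest annotated transcript and the ratio was -0.35, and -0.53 in clusters 0 to 5. The genes come from the same pair of libraries, so this is a description. The median ratio was 0.15 in the shortest tercile of genes (median length 1629 bases), 0.00 in the middle one (3432 bases) and -0.21 in the longest (6110 bases). The oxidative phosphorylation genes had a median length of 865 bases, B cell receptor signalling genes 4107 and transcription factor genes 5985, and the part of length in the list medians was not tested.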

How the data were processed

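Live CD45+ colon cells were profiled in 1 pooled library per genotype. Cell Ranger 6.0.1 and the build mm10 are named in the submitters' processing notes, while filters and clustering settings are not given. The authors deposited natural log values, ln(1 + UMIs per 10000 UMIs of the cell), for 32285 genes, and an SCT table of natural log values for 14128 genes. The deposited metadata give each cell's UMI and gene counts, the percent of mitochondrial UMIs, library and cluster. The metadata also hold the authors' SCT totals, a score that was not used. The library named AD was taken as 5XFAD, the only one that is not WT.

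UMI counts were rebuilt from the logs and each cell's deposited count total, and 100% of 11758401 nonzero values were whole within 1e-06. UMIs were summed per class and library and divided by the class total (CPM). Log2 ratios have exact conditional binomial intervals, levels exact Poisson and shares Clopper-Pearson intervals, all at 95%. Genes with at least 50 UMIs were compared. Genes named between clusters had at least 50 CPM and UMIs in 10% of cells of the higher class in each library. Those named between genotypes were the 12 on each side whose interval bound nearest 0 was farthest from it, with UMIs in at least 10% of cells of the higher library and no cell over 25% of its UMIs. Variable antibody and T cell receptor segments, ribosomal protein, mitochondrial, Gm, Rik and sex-linked genes were left out of these rankings. Of each list, up to 4 members with the most UMIs and up to 3 with the largest ratio could be named, and other list members were singled out after their values were seen. Some genes are not reported here and were left out of the lists. Members, lists and rules were chosen with earlier results of these data known. Promoters are RefSeq entries, and transcript lengths come from GENCODE vM21. Calculations were tested on simulated counts (Python 3.11.15, numpy 2.4.6, scipy 1.17.1, pandas 2.3.3, matplotlib 3.10.9). Alternatives were other scalings, minimum counts, denominators, call rules and cells left out.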

Additional observations from a re-analysis of the deposited data

Results flagged for a closer look

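The 6 genes that follow had genotype ratios of opposite sign in cluster 6 and in clusters 0 to 5, with counting intervals away from 0 in both. All are members of the gene lists, and how many of all 4049 genes compared do the same is not given here. The difference between the clusters was not tested for any of them, since each genotype is 1 library. S1pr1 had a log2 ratio of 5XFAD over WT of 0.64 in cluster 6 and -0.16 in clusters 0 to 5. Ccr7, the receptor for T zone chemokines, had 0.43 and -0.26. Cd83, an activation marker that stabilises MHC class II, had 0.22 and -0.21. Jchain had 0.50 and -1.19, and its value in cluster 6 turned to -1.09 without the 3 cells with over 10% immunoglobulin UMIs. Pou2af1, the octamer coactivator OCA-B, had -0.41 and 0.16. Uqcrh, a subunit of respiratory complex III, had -0.28 in cluster 6 and 0.11 in clusters 0 to 5. Of the 26 oxidative phosphorylation genes, 23 were above 0 in cluster 6, against 48.9% of all genes.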

How the results depend on the processing

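No paired analysis was possible because each genotype has 1 library. Among single genes whose interval lay away from 0, Jchain and Igkc changed direction under some alternatives. Values near 0 also changed sign: Ighg2b between genotypes was -0.07, and 0.54 without the 6 WT cells with germinal centre genes, and the median of the plasma cell and secretion list was 0.07, and -0.21 without cells over 10% immunoglobulin and -0.16 without the top cell of each gene. Jchain between genotypes was 0.50 with all cells, -1.09 without cells over 10% immunoglobulin, -2.10 without its top cell in each library, -0.35 as a mean of per-cell CPM and -0.042 with SCT values. Igkc between genotypes was 0.26, and -0.23 as a per-cell mean and -0.19 with SCT values. Igkc in cluster 6 over clusters 0 to 5 was 1.007 in 5XFAD and 0.85 in WT, and -0.32 and -0.28 without cells over 10% immunoglobulin. The genotype ratio of Igha was -0.53, and -0.97 without those cells. The counts of genes above 1 and below -1 between genotypes, 64 and 99 at 50 UMIs, were 217 and 342 at 20 UMIs and 21 and 33 at 100 UMIs, with more and fewer genes measured. The other 26 alternative counts stayed within 1.5 times the main count, and all 28 alternative values of shares and isotypes stayed within the main interval. Of the alternatives for single genes and thinned shares, 1609 stayed within the main interval, 29 moved and 8 reversed. Scalings moved the median of all genes by at most 0.03. Leaving out the cells with germinal centre genes was added after the data were seen. Depth limits genes under 2.91 CPM in 5XFAD and 4.18 CPM in WT, which is 3 UMIs over the whole of cluster 6. The spread between mice cannot be measured.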

Other observations

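Il10, the anti-inflammatory cytokine, was low in cluster 6, with 1 UMI in 5XFAD and 6 UMIs in 5 WT cells. Atf3 and Egr2, factors induced by stress and receptor signals, were above clusters 0 to 5 in both libraries (ratios 1.33 and 1.72 for Atf3, 1.22 and 1.11 for Egr2), while the heat shock genes Hspa1a and Hspa1b were below the pooled level (-2.52 and -1.57, and -1.66 and -1.07). Single clusters among 0 to 5 differed widely in Hspa1b, with a median of 1.64 CPM in 5XFAD and 26.9 CPM in WT and a highest value of 407 and 602 CPM, so that cluster 6 was below the pooled level and above the median cluster. For Atf3 the highest single cluster, at 113 and 84.6 CPM, was above cluster 6, at 58.2 and 79.5 CPM. Within cluster 6 Hspa1b was at 6.79 CPM in 5XFAD, against 58.6 CPM in WT. Of 9 interferon response genes measured, 0 were above 1 or below -1 against clusters 0 to 5 in both libraries. The shares over all genes were 3.08% and 1.44%. Tnfrsf13b, the receptor TACI that supports IgA responses, was at 68.8 and 107 CPM in cluster 6, and Tnfrsf13c, the BAFF receptor, at 71.7 and 146 CPM in 5XFAD and WT. Epcam was at 23.3 CPM in 5XFAD, against 5.58 CPM in WT, in 9.64% and 2.63% of cells.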
